A study of Mus musculus with 34 samples.

Results

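Aminoacyl-tRNA synthetases are the enzymes that join each amino acid to its transfer RNA before the ribosome uses it. The genes described here are the 36 mouse synthetase genes that the arrays carry under these names, 20 for enzymes of the cytosol and 16 for enzymes of the mitochondrion, whose symbols end in 2. They are picked out by their gene names among 22351 genes tested, and each was read from its brightest probe. The symbols follow the amino acid in the single-letter code: Gars charges the glycine tRNA, Qars the glutamine tRNA and Kars the lysine tRNA, and Eprs is a fused enzyme for glutamate and proline. Of their 72 probes, 71 passed the filter on dim probes, and all 36 genes had a probe that passed.

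Cytosolic synthetases feed translation on cytosolic ribosomes, whereas the mitochondrial set charges the tRNAs that the organelle makes from its own DNA. In the cytosol 8 of the enzymes, Dars, Eprs, Iars, Kars, Lars, Mars, Qars and Rars, are held together in the multisynthetase complex by the scaffold proteins Aimp1, Aimp2 and Eef1e1, and the others work outside it. Gars and Kars are known to supply both compartments from 1 gene. Synthetase genes are known targets of the amino acid stress factor Atf4 and are often raised where Myc drives growth.

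The data come from 34 mouse livers and liver tumors on Agilent arrays with 2 colours, in 10 groups. There were 3 control livers without a transgene, 7 end-stage tumors with a c-Myc transgene (Myc tumors), 3 with a TGFα transgene and 3 with TGFα and c-Myc (TGFα/Myc tumors). For each transgene there were also 3 livers in which doxycycline had turned it off for 4 weeks and 3 in which it had been off for 12 weeks. Per the labels, all samples were hybridised in Cy3 against Cy5-labelled liver RNA pooled from reference C57BL/6 mice of both sexes. The labels call the samples of a group biological replicates and each tumor an individual tumor, and they give no promoter for the transgenes, no age or sex and no strain for the samples themselves. p-values therefore measure the spread between samples so labelled, taken for each gene over all groups in the fit and not over the compared groups alone.

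Each level below is a log2 ratio of sample over reference, so 0 is the level of the reference liver, and each difference is on the same log2 scale. Differences were tested with limma across all 22351 genes with Benjamini-Hochberg adjustment, and a gene is called higher or lower at an adjusted p under 0.05. The fit used 31 arrays. The other 3 arrays, TGFα tumor replicates 2 and 3 and TGFα off 4 weeks replicate 1, stand apart: their medians over intestine marker genes were -1.53, -2.46 and -0.43, against -0.13 to 0.41 on the others, where the labels give them the same reference. They were left out, and whether their reference was another RNA was not tested. That leaves 1 TGFα tumor and no test for that group. Between 44.1% and 72.1% of probes were above background on an array. The probe for the Myc transgene read from 1.04 to 6.25 in the Myc tumors, 4.65, 5.48 and 0.83 in the TGFα/Myc tumors and from -1.07 to 0.17 in the controls. The low readings belong to Myc tumor 5 and TGFα/Myc tumor 3. TGFα tumor 1, labelled with TGFα alone, read 3.28 on a saturated spot, and Myc tumor 1 read 2.50, also saturated. With the transgenes off for 4 weeks TGFα/Myc livers read 1.35, 1.06 and 0.61, and TGFα liver 2 read 1.00. Whether this probe tells the transgene from the Myc RNA of the mouse itself was not tested. A second scanner read Myc tumors 2 to 7 and nothing else, each of them on a day without control livers, and Myc tumor 1 is the only one of its kind scanned beside other groups.

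The probes behind the results lie in these genes, and 6 are printed whole or in part because the main differences rest on them. The coordinates are those of the deposited files (mm9), and the orientation is that of the transcript. No probe from which a synthetase was read shares 20 bases in a row with the probe of another gene. The other synthetase probes were not checked. Gars, on chr6:55019476-55023387 (+), Qars, on chr9:108417534-108418156 (+), and Iars2, on chr1:187111041-187111948 (-), span more of the genome than the length of the probe, as a probe across an exon junction does. Kars lies on chr8:114520409-114520468 (-), Cars on chr7:150745052-150745111 (-) and Lars2 on chr9:123371116-123371175 (+); of the Lars2 probe the first 30 bases are given.
Gars: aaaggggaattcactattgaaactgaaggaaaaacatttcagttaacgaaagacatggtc
Qars: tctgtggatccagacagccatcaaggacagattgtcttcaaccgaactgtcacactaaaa
Kars: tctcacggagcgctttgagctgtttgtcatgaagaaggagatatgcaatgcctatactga
Cars: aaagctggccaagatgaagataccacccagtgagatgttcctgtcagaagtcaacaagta
Iars2: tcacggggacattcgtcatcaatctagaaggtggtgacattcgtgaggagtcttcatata
Lars2: acgtcgctttttgatccttcgatgtcggct

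Myc tumors carried more synthetase RNA than control livers. Of the 20 cytosolic genes 11 were higher and 1 was lower, with a median difference of 0.83, and 18 of the 20 differences were positive. Of the 16 mitochondrial genes 6 were higher and 2 lower, with a median of 0.42. The 2 were Aars2 and Lars2, whose probe cannot be told apart from ribosomal RNA, as described below. The background is wide, since 18.2% of all genes tested were called higher and 16.6% lower in this comparison, and the median over all genes was -0.013. Groups did not overlap for 12 of the called synthetases, 11 higher and 1 lower, and for 10.2% and 9.94% of all genes tested. In these bulk samples a change in the share of a cell type and a change of RNA per cell cannot be told apart.

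**Figure D1:**
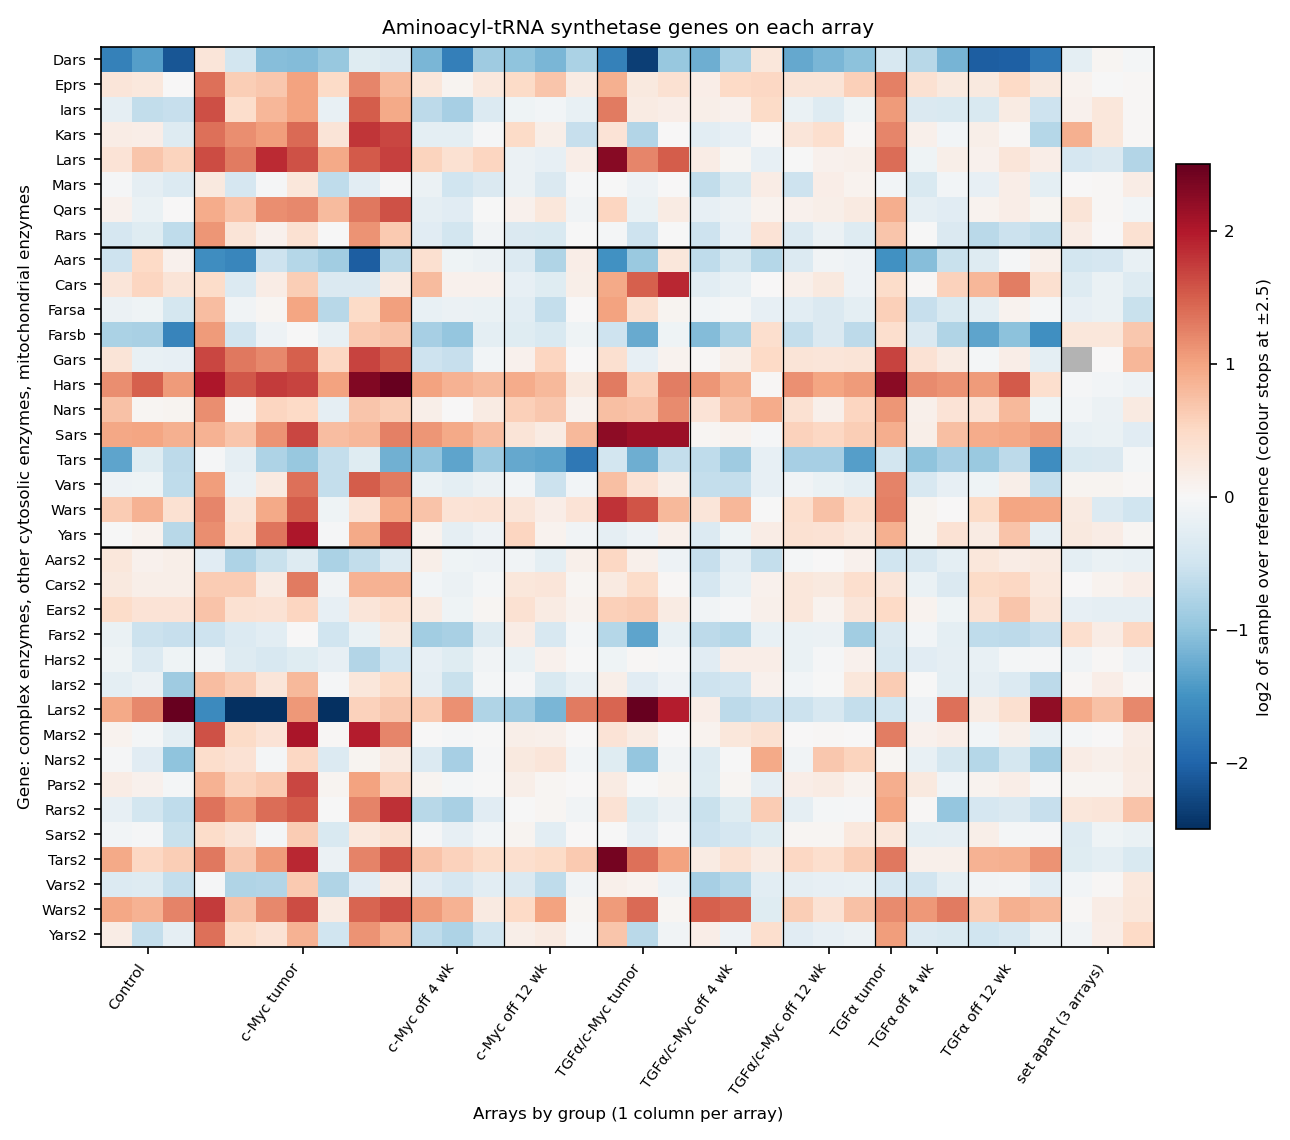
Level of each of the 36 synthetase genes (rows, cytosolic above mitochondrial) on each of the 34 arrays (columns, by group), as log2 of sample over reference; colours stop at 2.5 in either direction and the gray cell has no value. Rows such as Gars, Qars and Kars are red across the Myc tumors and near 0 in the controls and in the livers with the transgene off.

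Among the 8 enzymes of the complex 7 were higher in Myc tumors and none was lower, with a median of 1.05, against 4 higher and 1 lower of the 12 cytosolic enzymes outside it, with a median of 0.39. Mars, the methionine enzyme, was the member of the complex that was not called: its difference was 0.08 (adjusted p = 0.773), and its second probe gave 0.42. The scaffold proteins rose with the enzymes, 3 of 3, namely Aimp2 (listed as Jtv1) by 0.90, Eef1e1 by 1.54 and Aimp1 (listed as Scye1) by 0.52. By catalytic fold, 7 of 10 class I and 4 of 10 class II cytosolic genes were higher, and 1 of class II was lower. Eprs, the fused enzyme, was counted in class I alone.

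Qars, the glutamine enzyme of the complex, had the smallest p of all members. It read 0.11, -0.17 and 0.02 in the control livers, and 0.71 at the lowest, 1.17 at the median and 1.58 at the highest in the Myc tumors. Every tumor was above every control. The difference was 1.11 (SE 0.15, 2.16-fold, adjusted p = 9.31e-06, 7 tumors and 3 controls), and the other probes gave 1.13 and, at a dim probe above background on 22 arrays, 0.058.

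Lars, the leucine enzyme, read 0.34, 0.70 and 0.56 in the controls and 0.95, 1.59 and 1.87 at the lowest, median and highest of the Myc tumors. Again no tumor fell among the controls. The difference was 0.98 (SE 0.18, 1.97-fold, adjusted p = 0.000192). It rests on the choice of probe, since the other probes gave 0.75 and -0.41 and their mean was not called (adjusted p = 0.138).

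Iars, which charges the isoleucine tRNA, read -0.23, -0.62 and -0.58 in the controls and -0.18, 0.94 and 1.60 at the lowest, median and highest of the Myc tumors. The groups touched closely, at Myc tumor 5, but did not overlap. The difference was 1.36 (SE 0.28, 2.56-fold, adjusted p = 0.000646), with 1.22 at a second probe and -0.029 at a dim one that was above background on 16 arrays. Rars, for arginine, read -0.42, -0.30 and -0.63 in the controls and -0.01, 0.38 and 1.13 in the tumors, taken the same way, for a difference of 0.98 (SE 0.21, adjusted p = 0.000914). For Rars too the lowest tumor lay above all controls.

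Kars read 0.18, 0.17 and -0.31 in the controls and 0.32, 1.38 and 1.79 at the lowest, median and highest of the Myc tumors, a difference of 1.24 (SE 0.27, 2.36-fold, adjusted p = 0.000944). The tumor nearest the controls was Myc tumor 5. Eprs, by 0.69, and Dars, the aspartate enzyme, by 1.18, complete the members of the complex that rose, although the Dars call was lost without control 3 (adjusted p = 0.0513). Eprs was not called when the kept probes were averaged (adjusted p = 0.226), and its other probes gave 0.44, 0.17 and -0.14. Dars was below the reference liver in every control (-1.68, -1.39 and -2.14).

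Outside the complex, Gars had the smallest p. It read 0.33, -0.18 and -0.21 in the controls and from 0.52 to 1.70 in the Myc tumors, of which all but replicate 5 were at 1.21 or higher. Even the lowest tumor, replicate 5, exceeded the highest control. Its difference was 1.36 (SE 0.20, 2.57-fold, adjusted p = 2.13e-05). Farsb, the beta subunit of the phenylalanine enzyme, rose by 1.31, Yars (tyrosine) by 1.27 and Vars (valine) by 0.97, the last not called without control 3 (adjusted p = 0.14). Farsa, the alpha subunit that pairs with Farsb, differed by 0.59 and was not called (adjusted p = 0.0802). Hars was also short of the threshold, at 0.61 (adjusted p = 0.0937).

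The remaining cytosolic genes were not called in this comparison. Cars (cysteine) differed by -0.32, Nars (asparagine) by 0.19, Tars (threonine) by 0.18, Wars (tryptophan) by 0.12 and Sars (serine) by 0.09. Sars was above the reference in the controls (0.96, 0.98 and 0.88) as in the Myc tumors (0.69 to 1.66), and those ranges overlap.

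**Figure D2:**
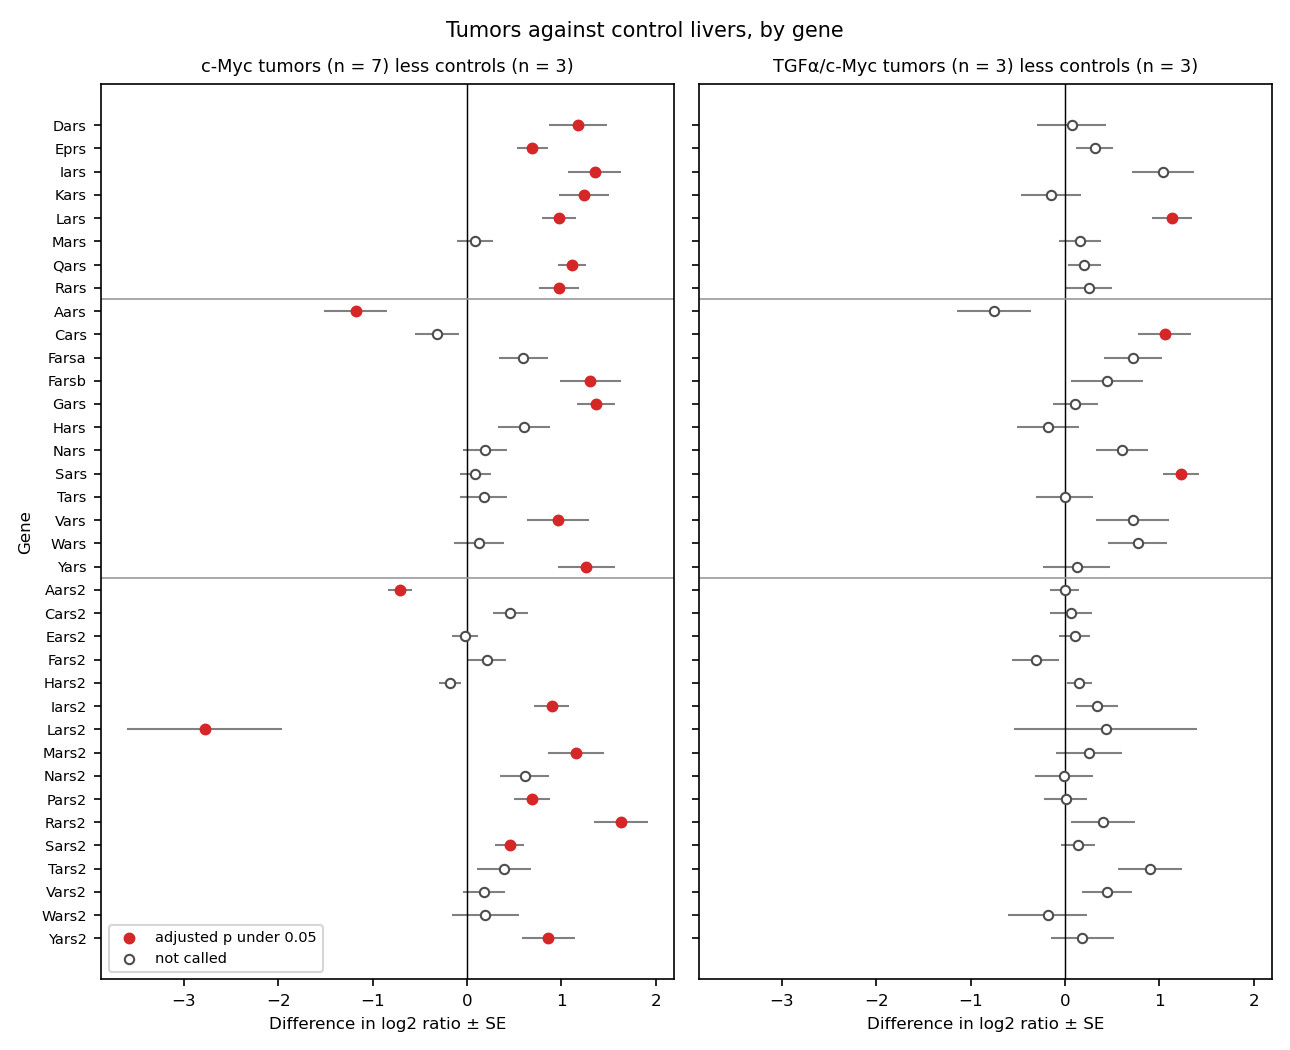
Difference in log2 level from the 3 control livers for each synthetase gene, with its SE, in the 7 Myc tumors and the 3 TGFα/Myc tumors; called genes are in red. In Myc tumors 17 genes lie above 0 and 3 below it among those called, while in TGFα/Myc tumors the called genes are Sars, Lars and Cars.

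Aars, the alanine enzyme, went against the cytosolic majority. It read -0.52, 0.51 and 0.12 in the controls and -2.06, -0.88 and -0.51 at the lowest, median and highest of the Myc tumors. The highest tumor reached the lowest control, so the groups met. The difference was -1.18 (SE 0.33, 2.27-fold lower, adjusted p = 0.00759). It was not called from the sample channel alone (adjusted p = 0.627) or without control 2 (adjusted p = 0.068), and the other probes gave -0.58, -0.35 and -0.05.

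The mitochondrial genes divided. Rars2 (arginine) rose by 1.63 (SE 0.28, 3.1-fold, adjusted p = 0.000131), the widest rise of any synthetase. It read -0.20, -0.45 and -0.64 in the controls and -0.01, 1.36 and 1.83 at the lowest, median and highest of the Myc tumors. Only Myc tumor 5 came near the controls. Iars2 (isoleucine) read -0.24, -0.15 and -0.89 in the controls and -0.03, 0.48 and 0.81 in the tumors, taken the same way, for a difference of 0.90 (SE 0.19, adjusted p = 0.000666). No tumor overlapped a control for Iars2. Mars2 rose by 1.16, Yars2 by 0.86, Pars2 by 0.69 and Sars2 by 0.45, each with groups that overlapped. Without control 3 Sars2 and Yars2 were not called (adjusted p = 0.235 and 0.0662), nor was Yars2 without control 2 (adjusted p = 0.133).

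Aars2, the mitochondrial alanine enzyme, was lower, like its cytosolic counterpart. It read 0.29, 0.10 and 0.15 in the controls and -0.80, -0.56 and -0.29 at the lowest, median and highest of the Myc tumors. All 7 tumors lay below all 3 controls. The difference was -0.71 (SE 0.13, 1.64-fold lower, adjusted p = 0.000178). On the arrays of the first scanner, which hold 1 Myc tumor, the difference was -0.47 and was not called (adjusted p = 0.0767).

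Lars2 was also called lower, with a difference of -2.78 (SE 0.82, adjusted p = 0.011). The controls read 0.96, 1.20 and 2.83 and the Myc tumors -3.09, -1.59 and 1.08 at the lowest, median and highest, so the groups overlapped. The call was lost without control 3 (adjusted p = 0.0974). Its single probe stood between the 96.4 and 99.99 percentiles of sample brightness in the controls and was saturated in the sample channel of 3 arrays and in the reference channel of 8. These include control 2 in both channels and Myc tumor 1 in the reference channel, so the size of any Lars2 difference given here is not exact. From general knowledge, which no file here allows to be checked, the letters printed above also occur in the RNA of the large ribosomal subunit. RNA of Lars2 and ribosomal RNA cannot be told apart at this probe.

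The other 8 mitochondrial genes were not called: Nars2 differed by 0.61, Cars2 by 0.46, Tars2 by 0.39, Fars2 by 0.21, Wars2 by 0.20, Vars2 by 0.18, Ears2 by -0.02 and Hars2 by -0.18. For Wars2 the probes disagree, since a second probe gave 1.11 (SE 0.24).

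The tumors differed among themselves. Myc tumor 5 was the lowest of the 7 in 27 of the 36 synthetases, 14 cytosolic and 13 mitochondrial, whereas Myc tumor 4 was the highest in 14 and Myc tumor 1 in 11. Myc tumor 5 was also the lowest at the transgene probe (1.04) and in its dividing-cell median (0.03, against 3.48 at the highest). Without it, 25 synthetases were called instead of 20.

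The scans and the cell makeup moved with the comparison too, and their part in the result was not tested beyond the following values. With the scan day as a block 13 synthetases were called, 8 cytosolic and 4 mitochondrial higher and 1 cytosolic lower. Within scan day 1, where the spread comes from the Myc off 4 weeks livers alone, 17 were called, and on the first scanner, with the spread of all its groups, 20. Each of these rests on Myc tumor 1 alone, set against control 2 under the block and within the day, and says nothing of the spread among tumors. Kars, Lars and Iars2 kept differences of 1.21, 0.94 and 0.93 with the scan-day block but were not called (adjusted p = 0.148, 0.13 and 0.0561). Markers of dividing cells were higher in 9 of 10, with a median of 2.59, and hepatocyte markers were lower in 5 of 9, with a median of -1.47. Per array, the dividing-cell median ran from -0.29 to -0.09 in the controls and from 0.03 to 3.48 in the Myc tumors, and the hepatocyte median from -0.20 to -0.00 and from -3.13 to 0.03. All 9 hepatocyte markers measured were above background on all 34 arrays. Neutrophil markers were higher in 6 of 7, with array medians of 0.05 to 0.36 in the controls and 0.72 to 2.94 in the Myc tumors; Elane (listed as Ela2), a defining marker, was above background on 3 arrays.

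Cytosolic and mitochondrial synthetases were also set against each other on each array. In the Myc tumors the cytosolic median was 0.68 ± 0.45 and the mitochondrial median 0.42 ± 0.33 (SD, n = 7), against -0.08 ± 0.16 and -0.02 ± 0.15 in the controls (n = 3). The cytosolic less the mitochondrial median was 0.25 ± 0.22 in the Myc tumors, -0.06 ± 0.07 in the controls and 0.18 ± 0.18 in the TGFα/Myc tumors (n = 3). With the Myc transgene off it was -0.06 ± 0.04 at 4 weeks and -0.15 ± 0.13 at 12 weeks. The gap thus lay 0.31 above the controls in Myc tumors and 0.24 above them in TGFα/Myc tumors, values that are given with no test because the genes were chosen with earlier results known. The sample channel alone, each gene less its control mean, gave smaller separation in TGFα/Myc tumors. There the cytosolic and mitochondrial medians averaged 0.19 and 0.12, against 0.77 and 0.47 in Myc tumors and -0.018 and -0.005 in controls.

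**Figure D3:**
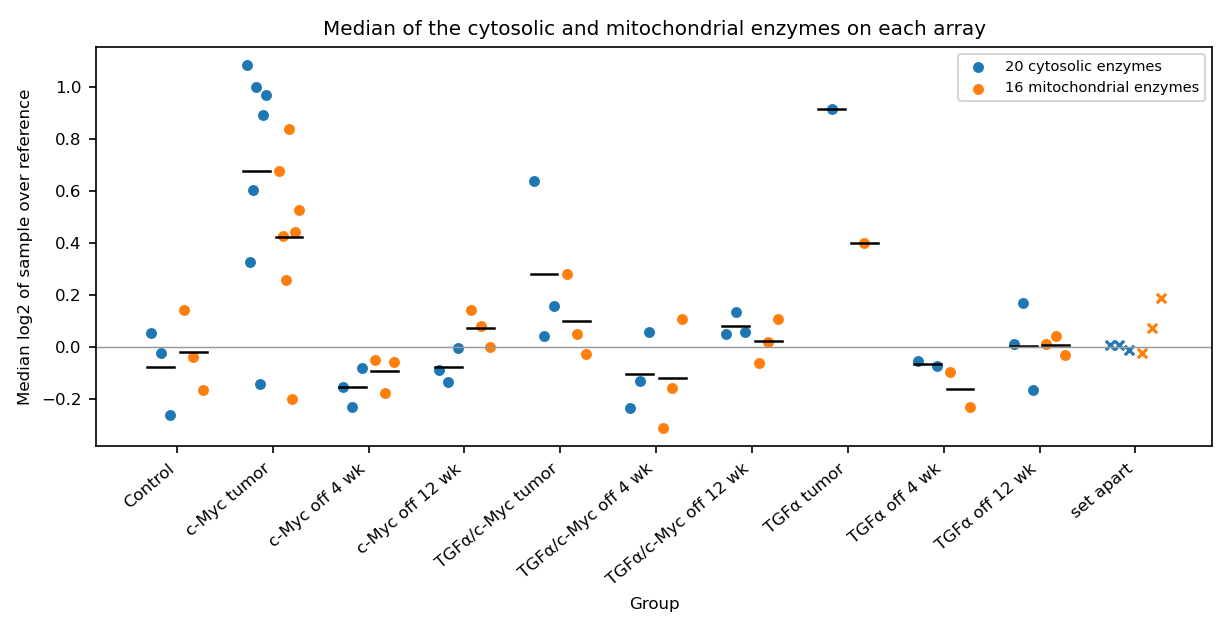
Median log2 level over the 20 cytosolic and over the 16 mitochondrial synthetases on each array, by group; points are arrays, bars are group means, and crosses are the 3 arrays that were left out of the fit. The cytosolic medians of the Myc tumors average 0.68 and those of the controls -0.08.

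In TGFα/Myc tumors 3 synthetases were called against controls with the spread of all groups, and none with only the compared groups fitted. Sars, Lars and Cars were higher, none of the 36 was lower, and no mitochondrial gene was called, where 1 had an unadjusted p under 0.05 in limma. Over all genes 1.1% were called higher and 0.949% lower, and 3102 of 22351 had an unadjusted p under 0.05 in limma. The median difference was 0.29 for the cytosolic and 0.14 for the mitochondrial genes.

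Sars separated the groups cleanly. It read 2.23, 2.14 and 2.14 in the TGFα/Myc tumors and 0.96, 0.98 and 0.88 in the controls. Every tumor lay above every control, and the spread within each group was small. The difference was 1.23 (SE 0.19, 2.34-fold, adjusted p = 0.00142). Lars read 2.27, 1.23 and 1.51 in these tumors, all above the controls, for a difference of 1.14 (SE 0.21, adjusted p = 0.00451). The call was lost without tumor 1 of this group (adjusted p = 0.0518), and as in the Myc tumors the mean of the Lars probes was not called (adjusted p = 0.359). Cars read 0.95, 1.49 and 1.88 against 0.30, 0.54 and 0.32, a difference of 1.06 (SE 0.28, adjusted p = 0.0464). The groups do not overlap, but the Cars call was lost when any 1 of 5 of the 6 arrays was left out, the exception being tumor 1 of this group. In these tumors the dividing-cell markers were higher in 5 of 10 and no hepatocyte marker was called.

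Gars, Qars and Kars were not called here. Gars read 0.40, -0.21 and 0.08, Qars 0.53, -0.17 and 0.21 and Kars 0.34, -0.74 and 0.00 in the TGFα/Myc tumors. Those readings overlap the controls. Aars read -1.51, -0.94 and 0.29, and was not called.

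The tumor types were then compared directly. In this test 11 synthetases were higher in Myc tumors than in TGFα/Myc tumors, 7 cytosolic and 4 mitochondrial, and 5 were lower, 2 cytosolic and 3 mitochondrial. Over all genes 12.5% were higher and 11.5% lower. Gars was higher by 1.25 (adjusted p = 0.000158), Qars by 0.91 (adjusted p = 0.000248), Kars by 1.39 (adjusted p = 0.000816), Rars2 by 1.23 (adjusted p = 0.00347), Yars by 1.14 (adjusted p = 0.0076) and Pars2 by 0.68 (adjusted p = 0.0118). Dars, Rars, Mars2, Iars2 and Hars were the others that were higher. Sars was lower in the Myc tumors, with a difference of -1.14 (adjusted p = 5.62e-05), as were Cars at -1.38 (adjusted p = 0.000287), Aars2 at -0.71 (adjusted p = 0.000488), Lars2, at its partly saturated probe, at -3.21 (adjusted p = 0.00674) and Hars2 at -0.33 (adjusted p = 0.0373). Without TGFα/Myc tumor 2 the count was 8, the calls of Dars, Rars, Hars, Mars2, Iars2, Pars2, Hars2 and Lars2 being lost, and it was 2 with the scan day as a block, where nearly all Myc tumors share no day with another group. Between the same tumors neutrophil markers were higher in 6 of 7 and dividing-cell markers in 5 of 10 in the Myc tumors, and hepatocyte markers were lower in 4 of 9 and endothelial ones in 4 of 8. The mean array medians were 1.82 in Myc and 0.14 in TGFα/Myc tumors for neutrophil, 2.65 and 1.67 for dividing-cell, -1.50 and -0.41 for hepatocyte and -0.96 and -0.14 for endothelial markers; their part in the result was not tested.

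**Figure D4:**
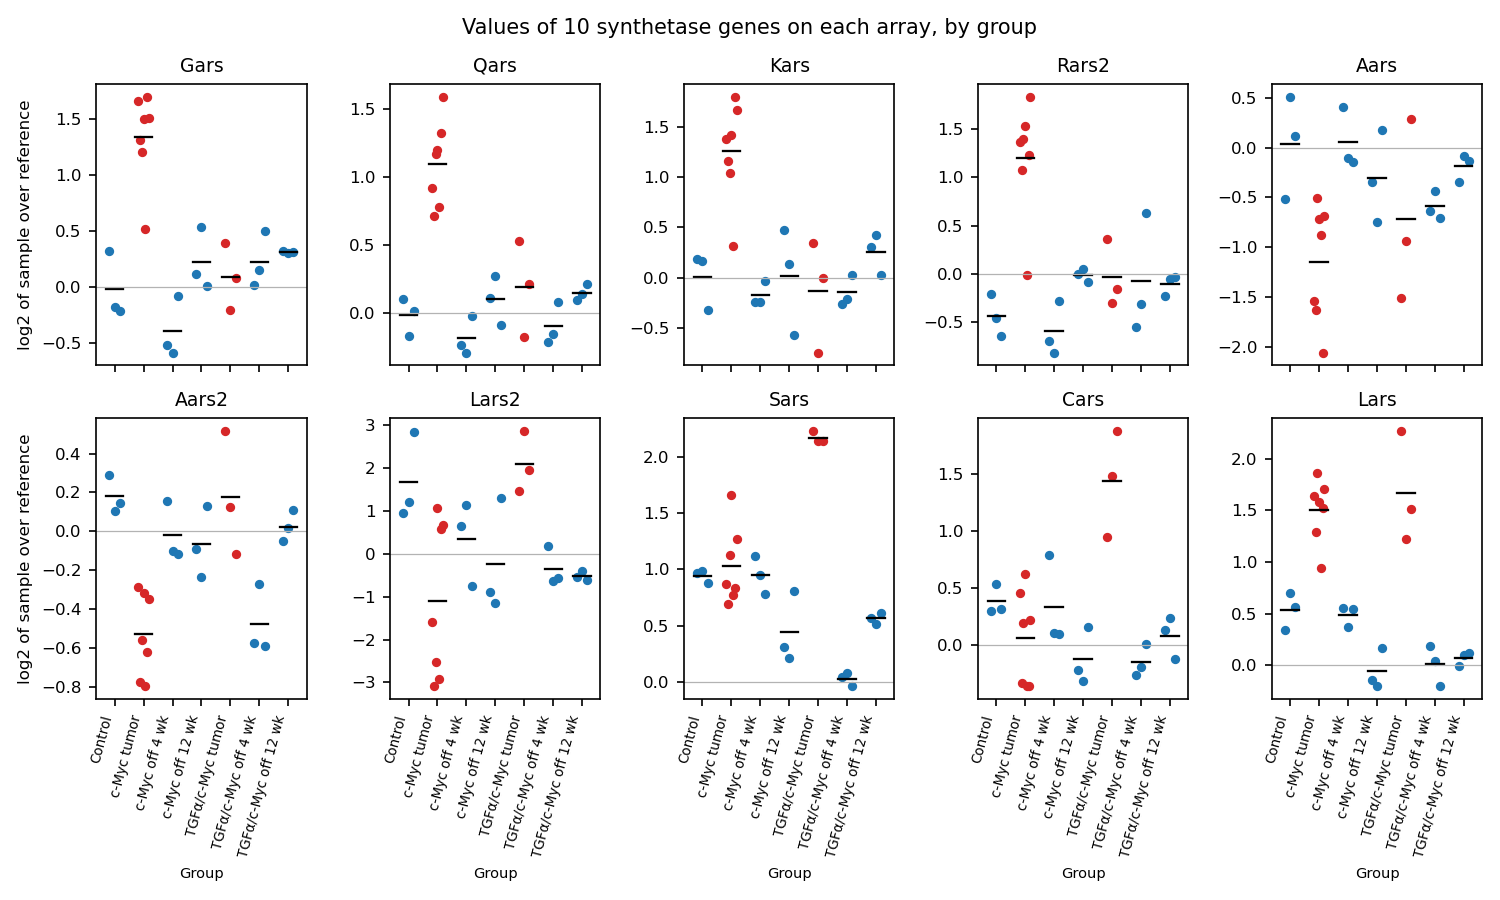
Level of 10 synthetase genes (log2 of sample over reference) on each array in 7 groups, with red points for tumors and bars for group means. Gars, Qars and Kars are high in the Myc tumors, whereas Sars sits at 2.14 to 2.23 in the TGFα/Myc tumors and at 0.69 to 1.66 in the Myc tumors.

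With the Myc transgene off for 4 weeks the difference from the tumors ran the other way. Against the Myc tumors 10 cytosolic synthetases were lower and 1 higher, with a median of -0.75, and 6 mitochondrial ones were lower and 1 higher, with a median of -0.51. Over all genes 17% were lower and 13.7% higher. These livers were all scanned on day 1 by the first scanner, as was Myc tumor 1 but no other Myc tumor. For Myc tumors 2 to 7 the difference from these livers cannot be told apart from the scanner and the scan day. Gars read -0.52, -0.58 and -0.08, a difference from the tumors of -1.74 (SE 0.20, adjusted p = 2.64e-06). Qars read -0.23, -0.29 and -0.02, a difference of -1.28 (adjusted p = 3.53e-06). In both genes all 3 livers lay below all 7 tumors.

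Rars2 read -0.69, -0.81 and -0.28, a difference from the tumors of -1.79 (adjusted p = 6.74e-05). Lars fell by 1.02 to readings of 0.56, 0.37 and 0.54, Kars fell by 1.42 to -0.24, -0.24 and -0.03, and Iars fell by 1.49 to -0.65, -0.84 and -0.35 (adjusted p = 0.00016, 0.000323 and 0.000325). No liver overlapped a tumor in any of these 4 genes. Yars2, Eprs, Pars2, Iars2, Yars, Cars2, Rars, Mars2, Hars and Farsb were the others that were lower. The Farsb call was lost without any 1 of 5 of the 10 arrays (adjusted p up to 0.164).

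The alanine enzymes went the other way. Aars2 was higher than in the tumors by 0.51 (adjusted p = 0.0038), with readings of 0.16, -0.10 and -0.12, and Aars by 1.20 (adjusted p = 0.00759), with readings of 0.41, -0.10 and -0.14. Neither overlapped the tumors. From the sample channel alone the difference of Aars turned to -0.085 and was not called, without liver 1 of this group its adjusted p was 0.0629, and Aars2 was not called within scan day 1 (adjusted p = 0.265). In the same comparison hepatocyte markers were higher in 6 of 9 and dividing-cell markers lower in 9 of 10.

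At 12 weeks 11 cytosolic synthetases were lower than in the Myc tumors and none higher, with a median of -0.71, and 4 mitochondrial ones were lower and 2 higher, with a median of -0.36. Over all genes 16% were lower and 14.5% higher. None of these livers shared a scan day with a Myc tumor. Lars fell by 1.57 to readings of -0.14, -0.20 and 0.17 (adjusted p = 1.42e-06), Qars fell by 1.00 to 0.12, 0.27 and -0.08 (adjusted p = 3.78e-05), and Gars fell by 1.12 to 0.12, 0.54 and 0.01 (adjusted p = 0.000193). Lars and Qars did not overlap the tumors, and Gars met the lowest of them. Kars fell by 1.24 to readings of 0.47, 0.14 and -0.57, Hars fell by 1.18 to 0.93, 0.81 and 0.25, and Rars2 fell by 1.21 to -0.00, 0.05 and -0.08 (adjusted p = 0.0011, 0.00215 and 0.00229). Rars, Pars2, Sars, Iars, Iars2, Tars, Mars2, Yars and Vars were the others that were lower. The Vars call was lost without any 1 of 7 of the 10 arrays (adjusted p up to 0.182), the Yars call without liver 2 or 3 and the Sars call without liver 1 or 2. Aars2 was higher by 0.47 (adjusted p = 0.00737) and Hars2 by 0.34 (adjusted p = 0.0253), calls that were lost without liver 3 of this group (adjusted p = 0.0689 and 0.0746), that of Hars2 also without liver 2 (adjusted p = 0.144). With the scan day as a block both turned, to -0.13 and -0.017, and a single synthetase was called, and without Myc tumor 5 there were 26 in place of 17.

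With both transgenes off, Sars, Lars and Cars came down. At 4 weeks Sars read 0.04, 0.08 and -0.04, below its tumors by 2.14 (SE 0.19, 4.41-fold, adjusted p = 1.16e-06), and the groups lay far apart. Lars read 0.19, 0.04 and -0.20, lower by 1.66 (adjusted p = 6.68e-05), and Cars -0.26, -0.19 and 0.01, lower by 1.58 (adjusted p = 0.00125). All 3 genes had every liver below every tumor. Wars was also lower, by 1.02 (adjusted p = 0.0438), with Tars2 by 1.34 (adjusted p = 0.0156) and Aars2 by 0.65 (adjusted p = 0.00839). That made 4 cytosolic and 2 mitochondrial genes lower and none higher, where 4.06% of all genes were lower and 3.9% higher. Without TGFα/Myc tumor 1 the count was 3, with Wars, Tars2 and Aars2 not called (adjusted p = 0.242, 0.151 and 0.093). These livers were scanned on days without tumors, so their difference from the tumors cannot be told apart from the scan day.

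At 12 weeks Sars read 0.57, 0.52 and 0.61, lower than in its tumors by 1.60 (adjusted p = 5.77e-05), and every reading was above those at 4 weeks, a difference that was not tested. Lars read -0.00, 0.10 and 0.12, lower by 1.60 (adjusted p = 0.000146), and Cars 0.13, 0.24 and -0.12, lower by 1.36 (adjusted p = 0.00597). These livers were scanned on a day without tumors, and the Cars call was lost when the slide was a random block (adjusted p = 0.0526) or the scan day a fixed one (adjusted p = 0.154), the latter with a difference of -1.42. No other synthetase was called. Over all genes 2.34% were lower and 2.16% higher.

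Livers with a transgene off were also set against the controls. For Myc off 4 weeks, Myc off 12 weeks, TGFα/Myc off 12 weeks, TGFα off 4 weeks and TGFα off 12 weeks limma called none of the 36 synthetases, and 0, 4, 4, 4 and 0 of them had an unadjusted p under 0.05. In the same order, 955, 2565, 2091, 2558 and 1718 of all 22351 genes (22350 for Myc off 4 weeks) had such a p. The shares of all genes called in either direction were 0.00895%, 0.148%, 0.0179%, 0.85% and 0.094%. TGFα/Myc off 4 weeks was the exception, with 5.39% of all genes called. There Sars was lower than in controls by 0.92 (SE 0.19, adjusted p = 0.00784) and Aars2 by 0.66 (SE 0.15, adjusted p = 0.0131). Aars2 read -0.57, -0.27 and -0.59 in those livers, all below the controls. Its call was lost without control 3, which left Sars alone. The TGFα/Myc off 4 weeks livers were scanned on days without control livers, so these differences cannot be told apart from the scan day.

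Whether the loss of the transgene moved a synthetase differently in the 2 tumor models was tested as an interaction, taking the change in Myc livers less the change in TGFα/Myc livers. At 4 weeks 6 cytosolic and 5 mitochondrial genes differed, where 13.8% of all genes did. The TGFα/Myc off 4 weeks livers shared no scan day with a tumor, so this result cannot be told apart from the scan day. Sars differed by 2.06 (adjusted p = 5.7e-05), as its change was -0.09 in the Myc livers and -2.14 in the others. Cars differed by 1.85 (adjusted p = 0.00206) and Aars2 by 1.16 (adjusted p = 0.00075). In the other direction were Gars at -1.87 (adjusted p = 0.000603), Qars at -0.99 (adjusted p = 0.00735) and Rars2 at -1.75 (adjusted p = 0.0111). At 12 weeks 4 cytosolic genes differed, Gars, Qars, Kars and Sars, where 2.83% of all genes did, and none of the mitochondrial ones, of which 7 had an unadjusted p under 0.05 in limma. Among all 22351 genes 4229 had such a p. No synthetase was called at 12 weeks when Myc off 12 weeks 3, any 1 of the TGFα/Myc off 12 weeks livers or TGFα/Myc tumor 2 was left out.

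TGFα tumor 1, the single usable array of its group, read 1.69 in Gars, 2.26 in Hars, 1.39 in Lars and -1.51 in Aars. Its cytosolic median was 0.91 and its mitochondrial median 0.40. Both medians lie above those of all 3 controls, on an array whose Myc transgene probe was saturated. Its neutrophil median was 4.17 (0.05 to 0.36 in the controls), its dividing-cell median 3.16 (-0.29 to -0.09) and its endothelial median -0.996 (-0.33 to -0.04), and their part in the readings was not tested. TGFα tumors 2 and 3, left out of the fit, read 0.33 and 0.02 in Qars, 0.89 and 0.29 in Kars and -0.47 and -0.42 in Aars, and TGFα off 4 weeks 1 read -0.07, 0.02 and -0.19.

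Other genes of tRNA charging and translation were counted from fixed lists, beside the 18.2% higher and 16.6% lower of all genes in Myc tumors. Cytosolic elongation factors, which bring the charged tRNA to the ribosome, were higher in 7 of 7, with a median of 1.20, among them Eef1b2 (1.94), Eef1g (1.47) and Eef1d (0.79). Initiation factors were higher in 10 of 17 and lower in 1, with a median of 0.72; Eif3a (listed as Eif3s10) rose by 1.61 and Eif4a1 by 1.06, and Eif5 fell by 1.40. Genes of tRNA processing, modification and export were higher in 14 of 28 and lower in none, with a median of 0.65, led by Trnt1, which adds the CCA end that the synthetases charge (1.46), and Elac2 (0.97).

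RNA polymerase III and its factors, which transcribe tRNA genes, were higher in 7 of 21 and lower in 2, with a median of 0.21; Polr3d rose by 0.89, Gtf3c3 by 0.72 and Polr3b by 1.07. Mitochondrial translation factors were higher in 2 of 10 and lower in 2, with a median of 0.10, Tsfm rising by 1.20 and Guf1 by 0.56 and Mtif2 falling by 0.64. The mitochondrial amidotransferase and other synthetase partners were higher in 5 of 12, with Dtd1 at 1.56, Pstk at 0.66 and Qrsl1 at 0.58.

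Genes of the amino acid response that Atf4 controls were higher in 13 of 28 and lower in 1 in Myc tumors, with a median of 0.48. Asns, the asparagine synthetase, was higher by 6.58 (adjusted p = 3.07e-08), and the serine synthesis genes Phgdh and Psat1 by 4.83 and 5.38. In TGFα/Myc tumors 5 of the 28 were higher, with a median of 0.47, and they were Asns (4.49), Phgdh (4.50), Psph (2.33), Psat1 (2.49) and Eif4ebp1 (0.90). Interferon response genes, a list fixed because interferon is known to raise Wars, were higher in 3 of 20 and lower in 7 in Myc tumors, with Usp18 at 2.66, Psmb9 at -1.78 and Cxcl10 at 1.74.

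Promoters were searched for the E-box CACGTG, which Myc and its relatives bind, and for TGATGNAAN, the core of the element that Atf4 and C/EBP proteins share, on both strands of the stretch from 250 bases before to 50 after the transcript start (RefSeq, GRCm38.p6). Windows were found for 27 of the 36 genes. The E-box was in 5 of 27 (18.5%), against 8.09% of 27025 genes, and by compartment in 4 of 13 cytosolic and 1 of 14 mitochondrial genes. The other element was in 5 of 27 (18.5%), against 4.5% of all genes, and by compartment in 5 of 13 cytosolic and none of the 14 mitochondrial genes. A match describes the letters only.

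Some stretches before the start that hold a match are printed with the match in capitals, because they show the letters around the motifs in genes described above; 1 match is shown for each gene, and not every match is shown. They are from Aars (chr8:111033684-111033713, +), which was lower in Myc tumors, from Farsb (chr1:78488919-78488948, -), Iars (chr13:49682049-49682078, +) and Gars (chr6:55037958-55037987, +), which were higher, and from Tars (chr15:11399659-11399686, -), which was not called.
Aars, E-box: agtcaaccctgtCACGTGacactccatgtc
Farsb, E-box: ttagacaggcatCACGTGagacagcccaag
Iars, E-box: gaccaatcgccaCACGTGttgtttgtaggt
Gars, Atf4 element: cctggctgcgctATTTCATCAtgcaccggg
Tars, Atf4 element: gccaggagtcccGTTGCATCAgctggtt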

How the data were processed

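Raw scanner files of 34 arrays, 1 per sample, were analysed. Per the file headers, intensity values came from Agilent Feature Extraction 9.1.3.1 or, on a second scanner, 10.7.3.1. The log10 ratios that the authors deposited in those files are red over green, so their sign was turned. The deposited series table correlated with those ratios at 0.824 to 0.997 over probes above background, with column medians of -0.37 to 0.45; it was taken as log2 values, with its centring not stated. The submitters' processing notes name limma.

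Mean and background median intensities were corrected by normexp (offset 50), loess-normalised within each array and expressed as log2 of Cy3 over Cy5 in R 4.3.3 with limma 3.58.1. These values correlated with the sign-turned deposited log10 ratios at 0.595 to 0.986. Control and outlier spots were left out, a probe had to be above background on 3 arrays (32788 of 41174 probes kept), and 1 probe, the brightest, stood for each gene. Members and lists were chosen with earlier results of these data known. Genes described in full were the 5 cytosolic and 3 mitochondrial members with the smallest p in Myc tumors, called members that moved against their compartment, and elsewhere up to 6 called members per direction. Of each other list, counts and up to 3 genes are given; the 5 response genes named in TGFα/Myc tumors are all that were called there. On simulated data 72% of genes changed by 1 and 98% of those changed by 2 on the log2 scale were recovered for Myc tumors against controls. The simulated noise was independent between arrays, with the same spread in every group. In the data, arrays of a slide correlated at 0.44, and synthetase medians spread wider in the Myc tumors than in the controls. The recovery in the data may therefore differ. Alternatives covered background, scaling, channel, filter, probe choice, arrays, batch and replicate blocks. The number of arrays limits the precision. Probe accessions were named through RefSeq, and samples were not paired by replicate number. A list gene and a promoter stretch are not reported here.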

Additional observations from a re-analysis of the deposited data

Results flagged for a closer look

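Among the Myc tumors, replicate 5 lay far below the other 6 in Gars (0.52, others 1.21 to 1.70) and in Rars2 (-0.012, others 1.08 to 1.83). These were 2 of 39 values examined, and chance flags about 1 in 20.

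The change after the transgene was turned off for 4 weeks differed between Myc and TGFα/Myc livers, by limma's interaction test, in Cars (1.85), Sars (2.06), Aars2 (1.16) and Lars2 (3.90, at a probe saturated on some arrays, so not an exact size), where the Myc change was the more positive, and in Dars (-1.77), Gars (-1.87), Kars (-1.41), Qars (-0.99), Nars2 (-1.24), Rars2 (-1.75) and Yars2 (-1.46), where it was the more negative. The Lars2 and Nars2 calls were each lost without any 1 of 10 of the 16 arrays (adjusted p up to 0.121 and 0.154). The Dars call was lost without any 1 of 3 arrays (adjusted p up to 0.0735). Those of Kars and Yars2 were each lost without any 1 of 4 (adjusted p up to 0.105 and 0.113). At 12 weeks the change differed in Sars (1.01), Gars (-1.35), Kars (-1.62) and Qars (-0.96).

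TGFα tumor 1, which entered no comparison, had a cytosolic median of 0.91, above the controls (-0.26 to 0.05), and a mitochondrial median of 0.40, above the controls (-0.16 to 0.14), with a neutrophil median of 4.17.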

How the results depend on the processing

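Counts below are of synthetases called, with the reported count first; the causes of the changes were not tested. Qars, Gars, Rars2, Iars and Rars were called in Myc tumors against controls under every alternative run, of which the scan-day block, the analysis within day 1 and the first scanner rest on 1 Myc tumor. Of 100 calls of single genes, 46 held when only the compared groups were fitted, 44 with the scan day as a block, and 78 to 100 under the scaling, channel, background, filter, probe and weight alternatives, fewest from the sample channel alone, where 1 turned; under the filter for probes above background on every array 84 of 85 held. Median centring and Aquantile changed no call. The analysis restricted to the first scanner, the within-day analyses and the one without the 2 tumors low at the Myc transgene probe were chosen after seeing the data.

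With only the compared groups fitted, Myc off 12 weeks against its tumors went from 17 to 8, Myc against TGFα/Myc tumors from 16 to 6, the response difference from 11 to 4 at 4 weeks and from 4 to 0 at 12 weeks, TGFα/Myc off 12 weeks and off 4 weeks against their tumors from 3 to 1 and from 6 to 1, TGFα/Myc off 4 weeks against controls from 2 to 0, and TGFα/Myc tumors against controls from 3 to 0. With the scan day as a block, Myc off 12 weeks against its tumors gave 1 and Myc against TGFα/Myc tumors 2. The response difference at 12 weeks gave 1, and Myc tumors against controls gave 13 in place of 20. The TGFα/Myc off 4 weeks livers shared no scan day with a tumor or a control. Their comparisons, and the response difference at 4 weeks, cannot be separated from the scan day. No counts under that block are given for them. Within scan day 7, with 2 TGFα/Myc tumors, 1 control and the spread of those tumors alone, no synthetase was called, and the differences were 1.22 for Sars, 1.41 for Lars and 0.92 for Cars. Under that block Aars2 and Hars2 turned to -0.13 and -0.017 in Myc off 12 weeks against tumors, and Hars2 to 0.16 in Myc against TGFα/Myc tumors; from the sample channel alone Aars turned to -0.085 in Myc off 4 weeks against tumors (adjusted p = 0.91). Slides as a random block gave 1 at 12 weeks for the response difference.

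The response difference at 12 weeks (4) gave 7 from processed signals, 1 with all 34 arrays, 11 on the first scanner, 11 with array weights, 8 without background subtraction and 8 without the 2 low tumors; at 4 weeks (11) it gave 17 on the first scanner. TGFα/Myc off 12 weeks against tumors (3) gave 8 from processed signals, 9 from the series table, 9 with weights, 9 without background subtraction, 6 from the sample channel and 7 without the low tumors. TGFα/Myc off 4 weeks against tumors (6) gave 12, 13, 11 and 10 under the first 4 of those, and against controls (2) 1 from the series table, 9 with weights and 1 from the sample channel. TGFα/Myc tumors against controls (3) gave 6 from processed signals, 6 from the series table, 5 with weights, 7 without background subtraction, 1 with all 34 arrays, 1 from the mean of probes and 7 without the low tumors. Myc off 12 weeks against tumors (17) gave 26 without the low tumors. Array weights called 3, 1, 5 and 4 against controls in Myc off 12 weeks, TGFα off 12 weeks, TGFα off 4 weeks and TGFα/Myc off 12 weeks, each 0 as reported.

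The replicate number as a block left 20 for Myc tumors against controls and gave 8 for the response difference at 12 weeks, 7 and 10 for TGFα/Myc off 12 weeks and off 4 weeks against tumors, and 5 for TGFα/Myc tumors against controls. Same-numbered samples correlated with a median of 0.02 (-0.01 for other pairs). A correlation over 0.1 was seen in 35 of 100 same-numbered pairs and in 50 of 292 other pairs. The correlations ran from -0.40 to 0.56 in same-numbered pairs and from -0.59 to 0.49 in the others. Whether the numbers pair some of the samples cannot be told from this, and the reported fit did not pair them.

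Leaving out 1 array at a time gave 15 to 25 for Myc tumors against controls, 16 to 23 and 12 to 26 for Myc off 4 and 12 weeks against tumors, 8 to 22 for Myc against TGFα/Myc tumors, 6 to 15 and 0 to 10 for the response differences at 4 and 12 weeks (lowest without Myc off 4 weeks 2, TGFα/Myc off 4 weeks 3 or TGFα/Myc tumor 2, and without Myc off 12 weeks 3, any TGFα/Myc off 12 weeks liver or TGFα/Myc tumor 2; highest at 12 weeks without Myc tumor 5), 3 to 8 and 3 to 5 for TGFα/Myc off 4 and 12 weeks against tumors (lowest without TGFα/Myc tumor 1, highest at 12 weeks without TGFα/Myc tumor 3), 1 to 3 for TGFα/Myc off 4 weeks against controls, 2 to 2 for TGFα/Myc tumors against controls, and 0 to 0 for the other comparisons with controls. The cytosolic less mitochondrial gap ranged from 0.28 to 0.37 above controls in Myc tumors and from 0.14 to 0.33 in TGFα/Myc tumors.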
